A study of Homo sapiens with 6 samples.

Results

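METTL3, the gene that both hairpins of this experiment were directed against, is the catalytic subunit of the enzyme that writes N6-methyladenosine (m6A) into messenger RNA. It is described here with 9 further genes: METTL14, WTAP, KIAA1429 (also called VIRMA), RBM15, RBM15B, ZC3H13 and CBLL1, which encode the other subunits of that enzyme, and METTL16 and METTL5, which encode separate m6A methyltransferases. The members were taken by gene name from the deposited expression table, in which all 10 have a row among 12654 genes. All 10 also passed the minimum mean score of 50 and are among the 12413 genes tested. The cells were LX2, an established human hepatic stellate cell line that grows as activated, collagen-producing cells, kept in high-glucose medium with 10% serum. The 3 groups hold 2 libraries each: shMETTL3-2 and shMETTL3-1, each made with its own METTL3 hairpin, and shLuc, the control, whose hairpin is directed at firefly luciferase. All 3 groups share the pLKO.1 vector, lentivirus produced by HEK293T, a line derived from human embryonic kidney, a 10 h infection with 1 µg/ml polybrene and selection in 1 µg/ml puromycin. Cells were selected as an infected population in 1 line, the time from infection to harvest is not given, and no uninfected group is among the samples analysed.

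Each deposited value is treated as a score rather than as a read count. In every library the scores run to the same maximum of 72566 with the same median of 552, so a score is close to a rank put onto a common scale. Sequencing depth is not kept on this scale, counting error cannot be given, and a change common to all genes cannot be measured. Differences are given as log2(score + 1), with the standard error (SE) of a limma fit over all 6 libraries and a p adjusted over all 12413 genes. A gene is said to rise or fall only where that adjusted p is below 0.05. With 2 libraries per group, and no statement that they came from separate cultures, the p-values rest on library-to-library spread that may be technical only. In bulk RNA, fewer expressing cells and less RNA per cell cannot be told apart.

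Calls were common among all genes, and the counts for the 10 members have to be read against that. For shMETTL3-2 against shLuc, 59.6% of the tested genes were called, and 4 of the 10 members were: 2 rose, where 30.8% of all genes did, and 2 fell, where 28.8% did. For shMETTL3-1 against shLuc, 58.7% of the tested genes and 6 of the 10 members were called, with 5 members higher (30.3% of all genes) and 1 lower (28.4%). The median member difference was -0.09 for shMETTL3-2 and 0.24 for shMETTL3-1 on the log2 scale, against 0.01 over all tested genes in each. For shMETTL3-2 against shMETTL3-1, 63.0% of the tested genes and 6 of the 10 members were called, with 1 member higher (31.9% of all genes) and 5 lower (31.1%). In the mean of both hairpins against shLuc, 58.3% of the tested genes and 5 of the 10 members were called, with 3 members higher (29.5% of all genes) and 2 lower (28.8%). With both hairpins, METTL3 fell and RBM15B and CBLL1 rose; the shares of all tested genes called with both were 13.4% lower and 15.7% higher. No member was called in opposite directions by the hairpins, a pattern seen in 10.5% of all tested genes; without trend and robust moderation METTL5 was, at -0.29 with shMETTL3-2 (adjusted p = 0.0456) and 0.57 with shMETTL3-1 (adjusted p = 0.00605). Leaving out METTL3, 2 of the other 9 rose and 1 fell with shMETTL3-2, and 5 rose and 0 fell with shMETTL3-1.

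The writer places a methyl group on the N6 position of adenosine, mostly within a short consensus around an AC pair and often near stop codons and in long exons, using S-adenosylmethionine (SAM) as the donor. METTL3 binds SAM and does the chemistry, METTL14 is its folded but catalytically inactive partner that helps hold the RNA, and WTAP brings the pair to nuclear speckles and to the remaining subunits. The mark is read by YTH-domain and other proteins that alter the splicing, translation and decay of the transcript, and in hepatic stellate cells it has been studied for its part in their activation during liver fibrosis.

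METTL3, METTL14, METTL16 and METTL5 each hold a form of a short signature. It is shown because its form differs between the active subunit METTL3 and its inactive partner METTL14. The 60 coding bases around it are given 5′ to 3′ along the coding strand, from GRCh37, with the 4 codons of the signature in capitals. These codons spell Asp-Pro-Pro-Trp in METTL3, Glu-Pro-Pro-Leu in the inactive partner METTL14, and Asn-Pro-Pro-Phe in METTL16 and METTL5.
METTL3: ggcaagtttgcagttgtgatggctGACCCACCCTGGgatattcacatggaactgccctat
METTL14: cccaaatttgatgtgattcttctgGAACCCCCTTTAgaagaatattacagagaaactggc
METTL16: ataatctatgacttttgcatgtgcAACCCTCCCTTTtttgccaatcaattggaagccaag
METTL5: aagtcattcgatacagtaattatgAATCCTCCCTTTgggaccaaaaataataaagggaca
The METTL3 stretch lies at chr14:21968723-21968782 on the minus strand, in exon 6 of 11, and its signature starts at codon 395 of 580. In METTL14 it lies at chr4:119618383-119618442 on the plus strand, in exon 7 of 11, from codon 192 of 456. The METTL16 stretch is at chr17:2371055-2371114 on the minus strand, in exon 5 of 10, from codon 184 of 562. In METTL5 the stretch crosses from exon 3 into exon 4 of 7, with the signature at chr2:170677621-170677632 on the minus strand, from codon 126 of 209. Exons and codons are counted on the annotation's canonical transcripts. The sequences of the hairpins were not used here, so their target sites cannot be placed along METTL3.

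METTL3 (ENSG00000165819) had scores of 148 and 132 in the shMETTL3-2 libraries, 274 and 256 in the shMETTL3-1 libraries, and 536 and 552 in the shLuc libraries. The 3 groups did not overlap, and each library lay on the side its label gives: both knockdown groups were below the control and shMETTL3-2 lay lowest. METTL3 fell by 1.95 on the log2 scale with shMETTL3-2 (SE 0.10, adjusted p = 6.44e-06), a score 3.87-fold lower, and by 1.04 with shMETTL3-1 (SE 0.10, adjusted p = 0.000107), 2.05-fold lower. The difference between the hairpins was itself past the threshold, at -0.92 for shMETTL3-2 minus shMETTL3-1 (SE 0.10, adjusted p = 0.00016). As a percentile of its own library, METTL3 stood at 19.9 and 17.9 in shMETTL3-2, 32.6 and 31.0 in shMETTL3-1, and 49.1 and 49.98 in shLuc, so the control level is that of a middle-ranking gene. A fall at least as large was measured for 1.70% of all tested genes with shMETTL3-2 and for 6.61% with shMETTL3-1. The table lists METTL3 at chr14:21966277-21971972 on hg19 (minus strand) under a transcript of 8 exons that the annotation classes as a target of nonsense-mediated decay. That transcript does not hold the signature shown above, while the canonical METTL3 transcript has 11 exons and its gene runs to 21979484. Whether the score counts reads of that transcript or of the whole gene is not stated in those sources that were used.

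**Figure D1:**
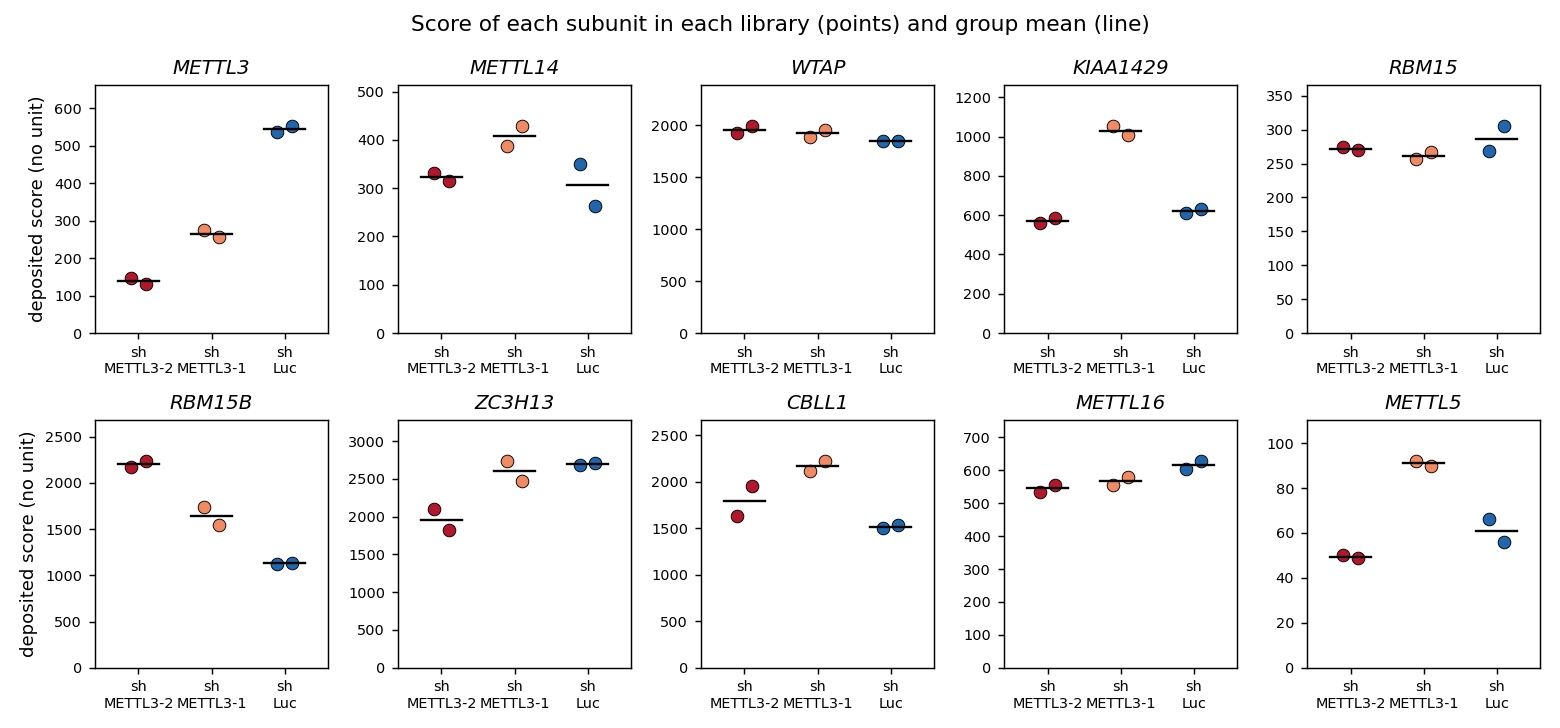
Deposited score of each of the 10 genes in all 6 libraries, with 1 point per library and the groups shMETTL3-2, shMETTL3-1 and shLuc from left to right. METTL3 steps down without overlap, RBM15B stands highest in shMETTL3-2, and KIAA1429, CBLL1 and METTL5 stand highest in shMETTL3-1.

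METTL14 (ENSG00000145388, chr4:119606523-119636588, plus strand), the partner that METTL3 forms its heterodimer with, had scores of 332 and 314 in shMETTL3-2, 388 and 428 in shMETTL3-1, and 350 and 263 in shLuc. The shMETTL3-2 values lie between the control values, while both shMETTL3-1 values lie above them. The shLuc libraries differed from each other by 0.41 on the log2 scale, the widest replicate gap of any member in any group. METTL14 rose with shMETTL3-1 by 0.42 (SE 0.14, adjusted p = 0.0337), but the call was lost without shLuc replicate 2 (0.22, adjusted p = 0.149), without shMETTL3-1 replicate 1 (0.49, 0.0813) and without shMETTL3-1 replicate 2 (0.35, 0.18), and the adjusted p ran from 0.00644 to 0.18 over the 15 alternatives. The difference with shMETTL3-2 was 0.09, with a 95% interval of -0.24 to 0.42 (adjusted p = 0.61). Between the hairpins METTL14 differed by -0.33 (adjusted p = 0.0712), which passed the threshold without either shLuc library (adjusted p = 0.0221 and 0.0211).

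WTAP (ENSG00000146457, chr6:160146617-160177351, plus strand), the adaptor that joins the catalytic pair to the larger complex, had scores of 1925 and 1988 in shMETTL3-2, 1886 and 1952 in shMETTL3-1, and 1846 in both shLuc libraries. Its values stayed within a narrow band in all 6 libraries, although both knockdown groups lie just above the tied control values. The difference was 0.08 with shMETTL3-2 (95% interval -0.03 to 0.20, adjusted p = 0.185) and 0.06 with shMETTL3-1 (-0.06 to 0.17, adjusted p = 0.369). These unadjusted intervals reach up to 0.20 on the log2 scale. They rest on 2 libraries per group, whose spread may be technical only, so they do not bound the change between cultures.

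KIAA1429 (ENSG00000164944, chr8:95499921-95565751, minus strand) encodes VIRMA, the large scaffold subunit that directs methylation towards the 3′ end of transcripts. Its scores were 558 and 587 in shMETTL3-2, 1052 and 1006 in shMETTL3-1, and 609 and 630 in shLuc. The shMETTL3-1 values stand well above the control, and the shMETTL3-2 values lie just below it, without overlap. KIAA1429 rose by 0.73 with shMETTL3-1 (SE 0.07, adjusted p = 8.07e-05), 1.66-fold, a rise matched or passed by 10.9% of all tested genes. With shMETTL3-2 the difference was -0.11, with a 95% interval of -0.27 to 0.04 (adjusted p = 0.172). For shMETTL3-2 minus shMETTL3-1 KIAA1429 differed by -0.84 (SE 0.07, adjusted p = 3.38e-05).

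ZC3H13 (ENSG00000123200, chr13:46528600-46626881, minus strand), the zinc finger subunit that keeps the regulatory part of the complex in the nucleus, had scores of 2097 and 1824 in shMETTL3-2, 2736 and 2474 in shMETTL3-1, and 2685 and 2716 in shLuc. The shMETTL3-2 libraries lie below all others, and the shMETTL3-1 values lie on both sides of the control. ZC3H13 fell by 0.47 with shMETTL3-2 (SE 0.08, adjusted p = 0.00188), 1.38-fold, and was the only member besides METTL3 to fall in either comparison with shLuc. Its difference with shMETTL3-1 was -0.05 (95% interval -0.24 to 0.13, adjusted p = 0.595), and shMETTL3-2 minus shMETTL3-1 was -0.41 (SE 0.08, adjusted p = 0.00315).

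CBLL1 (ENSG00000105879, chr7:107384142-107402112, plus strand), also known as HAKAI, is a RING-finger protein first described as a ubiquitin ligase for E-cadherin and later found in the writer complex. It had scores of 1634 and 1952 in shMETTL3-2, 2115 and 2222 in shMETTL3-1, and 1500 and 1533 in shLuc. Every knockdown value lies above every control value, and the shMETTL3-1 values lie highest. CBLL1 rose by 0.52 with shMETTL3-1 (SE 0.09, adjusted p = 0.00162), 1.43-fold. The rise with shMETTL3-2 was smaller, 0.24 (SE 0.09, adjusted p = 0.046), and 8 of 15 alternatives lost that call, with adjusted p from 0.00352 to 0.213. The call was lost without shMETTL3-2 replicate 2 (0.11) and without either library of shLuc or of shMETTL3-1, and without shMETTL3-2 replicate 1 the rise was 0.36. CBLL1 also differed between the hairpins, by -0.28 (adjusted p = 0.0233), and that call was lost without shMETTL3-1 replicate 1 (-0.32), shMETTL3-1 replicate 2 (-0.24) or shMETTL3-2 replicate 1 (-0.15).

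RBM15 and its paralogue RBM15B carry RNA-recognition and SPOC domains and bring the complex to U-rich sites, including the XIST RNA. RBM15B (ENSG00000179837, chr3:51428731-51435330, plus strand) had scores of 2167 and 2235 in shMETTL3-2, 1734 and 1545 in shMETTL3-1, and 1125 and 1136 in shLuc. The groups form 3 separate steps in the reverse order of METTL3. RBM15B rose by 0.96 with shMETTL3-2 (SE 0.07, adjusted p = 2.35e-05), 1.95-fold, and by 0.53 with shMETTL3-1 (SE 0.07, adjusted p = 0.000398), 1.45-fold. Rises at least as large were measured for 6.86% of all tested genes with shMETTL3-2 and for 16.9% with shMETTL3-1. The step between the hairpins was 0.43 (SE 0.07, adjusted p = 0.00106). RBM15 (ENSG00000162775, chr1:110881128-110889299, plus strand) had scores of 274 and 270 in shMETTL3-2, 256 and 267 in shMETTL3-1, and 268 and 305 in shLuc. These values lie close together, and the shMETTL3-2 values lie between those of shLuc. The difference of RBM15 was -0.07 with shMETTL3-2 (95% interval -0.30 to 0.16, adjusted p = 0.558) and -0.13 with shMETTL3-1 (-0.36 to 0.10, adjusted p = 0.297).

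**Figure D2:**
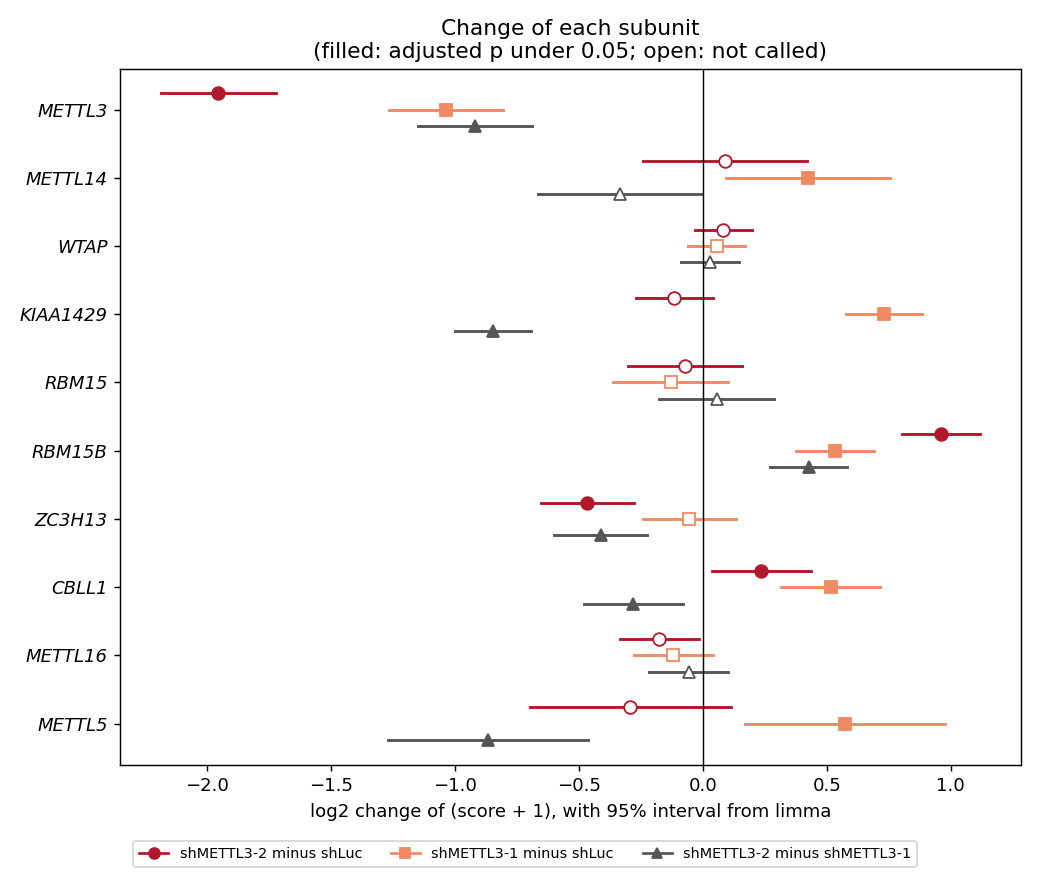
Difference on the log2(score + 1) scale for each gene, for shMETTL3-2 minus shLuc, shMETTL3-1 minus shLuc and shMETTL3-2 minus shMETTL3-1. Bars are the 95% intervals of the limma fit, and filled points mark an adjusted p below 0.05. Against shLuc, with shMETTL3-2 first, METTL3 lies at -1.95 and -1.04 and RBM15B at 0.96 and 0.53. In the same order KIAA1429 lies at -0.11 and 0.73 and METTL5 at -0.29 and 0.57. WTAP and RBM15 lie near 0 against shLuc with both hairpins.

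METTL16 and METTL5 work apart from METTL3. METTL16 methylates the U6 small nuclear RNA and hairpins in the MAT2A message, through which it takes part in the control of SAM synthesis, and METTL5 methylates the 18S ribosomal RNA with its stabilising partner TRMT112. METTL16 (ENSG00000127804) had scores of 534 and 556 in shMETTL3-2, 556 and 578 in shMETTL3-1, and 603 and 628 in shLuc. All 4 knockdown values lie below both control values. Its difference was -0.18 with shMETTL3-2 (95% interval -0.33 to -0.02), which missed the threshold after adjustment (adjusted p = 0.058), and -0.12 with shMETTL3-1 (-0.28 to 0.04, adjusted p = 0.173). The table lists METTL16 at chr17:2308856-2319379 on hg19 (minus strand) under a 3-exon transcript with no defined coding sequence, while the annotated gene runs to 2415185.

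METTL5 (ENSG00000138382, chr2:170666591-170681415, minus strand) had the lowest scores of the 10, 50 and 49 in shMETTL3-2, 92 and 90 in shMETTL3-1, and 66 and 56 in shLuc. Its groups do not overlap, and the hairpins lie on opposite sides of the control. METTL5 rose with shMETTL3-1 by 0.57 (SE 0.17, adjusted p = 0.0232), a call lost without shLuc replicate 2 (0.46, adjusted p = 0.0909), shMETTL3-1 replicate 1 (0.56, 0.0989) or shMETTL3-1 replicate 2 (0.59, 0.0869). With shMETTL3-2 the difference was -0.29 (95% interval -0.70 to 0.11, adjusted p = 0.183), and between the hairpins it was -0.87 (SE 0.17, adjusted p = 0.00351). Processed pseudogenes of METTL5 are annotated elsewhere in the genome, as they are for WTAP and CBLL1, and no source used here says how the authors' counting shared reads between such copies.

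The genes tied most closely to these enzymes were read beside them. TRMT112 had scores of 2253 and 2224 in shMETTL3-2, 2068 and 1960 in shMETTL3-1, and 2068 and 2127 in shLuc, with differences of 0.09 and -0.06 (adjusted p = 0.154 and 0.358). MAT2A, which makes SAM from methionine, had scores of 3367 and 3149 in shMETTL3-2, 3568 and 3080 in shMETTL3-1, and 3420 and 3166 in shLuc. Its groups overlap throughout, and its differences of -0.02 and 0.01 (adjusted p = 0.886 and 0.935) change sign when a single library is left out. MAT2B, the regulatory subunit of that synthetase, had scores of 592 and 689 in shMETTL3-2, 378 and 443 in shMETTL3-1, and 509 and 608 in shLuc. MAT2B fell with shMETTL3-1 by 0.44 (adjusted p = 0.0193), a call lost without shLuc replicate 2 (-0.31) or shMETTL3-1 replicate 1 (-0.33), and its difference with shMETTL3-2 was 0.20 (adjusted p = 0.212). AHCY, which removes the S-adenosylhomocysteine left after each methyl transfer, had scores of 2855 and 2932 in shMETTL3-2, 2880 and 2830 in shMETTL3-1, and 3465 and 3712 in shLuc. AHCY fell by 0.31 with shMETTL3-2 (adjusted p = 0.00178) and by 0.33 with shMETTL3-1 (adjusted p = 0.00137).

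Set against its partners within each library, METTL3 lost ground in every pairing. Its score was 44.6% and 42.0% of that of METTL14 in shMETTL3-2, 70.6% and 59.8% in shMETTL3-1, and 153% and 210% in shLuc. The canonical transcripts differ in length, 1.98 kb for METTL3 and 6.642 kb for METTL14. Per kb METTL3 stayed above METTL14 in every group, with 70.7 against 48.6 score units in shMETTL3-2, 134 against 61.4 in shMETTL3-1, and 275 against 46.1 in shLuc. Against KIAA1429 the METTL3 score was 26.5% and 22.5% in shMETTL3-2, 26.0% and 25.4% in shMETTL3-1, and 88.0% and 87.6% in shLuc. With this scaffold as the yardstick the hairpins lie together, since KIAA1429 rose with shMETTL3-1 where METTL3 fell less. Against RBM15B it was 6.83% and 5.91% in shMETTL3-2, 15.8% and 16.6% in shMETTL3-1, and 47.6% and 48.6% in shLuc. These percentages describe scores within a library, and say nothing of the amounts of protein.

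**Figure D3:**
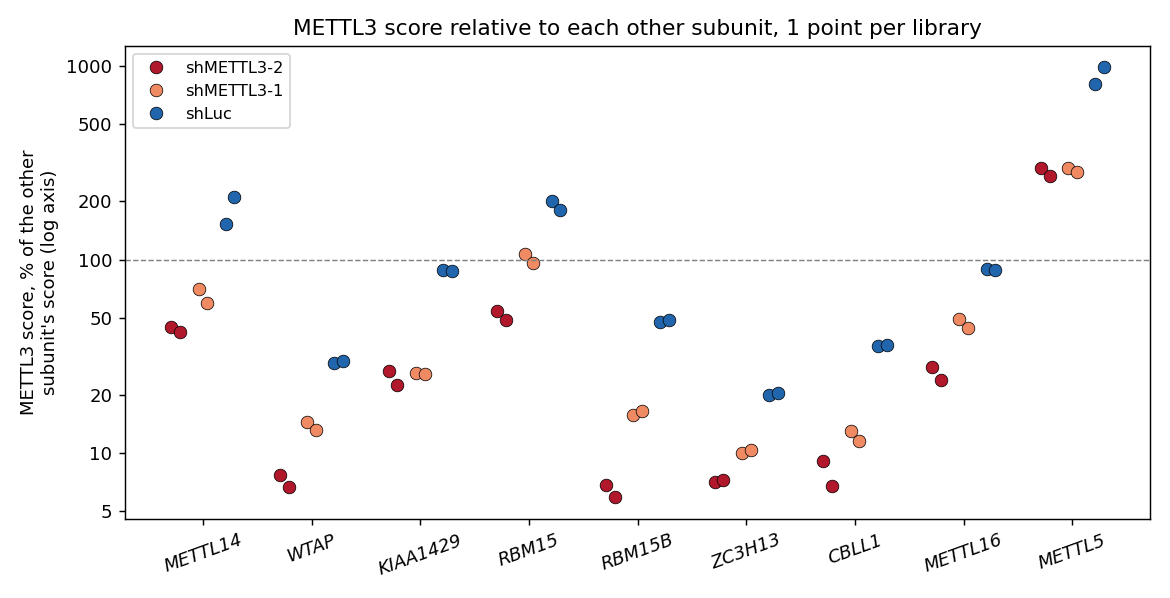
METTL3 score as a percentage of the score of each other gene (log axis), with 1 point per library and the groups shMETTL3-2, shMETTL3-1 and shLuc from left to right. Every percentage is lower in the 4 knockdown libraries than in the shLuc libraries. The percentages are not corrected for transcript length, so a crossing of 100% does not order the levels of the genes.

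Divided by the length of the canonical transcript, METTL3 took place 8 of the 10 genes in shMETTL3-2, with 70.7 score units per kb, above METTL5 (49.5) and METTL14 (48.6), whose libraries overlap, and below RBM15 (80.6). In shMETTL3-1 it took place 6, with 134 units per kb, behind RBM15B (248) and KIAA1429 (159) and ahead of METTL16 (98.8), and no neighbours in that order had overlapping libraries. In shLuc METTL3 took place 4, with 275 units per kb, behind WTAP (877), CBLL1 (380) and ZC3H13 (337). Below it there came RBM15B (171), METTL16 (107), KIAA1429 (95.6), RBM15 (84.9), METTL5 (60.9) and METTL14 (46.1), again with no overlap between neighbours. By canonical length WTAP led in all 3 groups, with 929 units per kb in shMETTL3-2, 912 in shMETTL3-1 and 877 in shLuc. The deposited rows name other transcripts for some members, so the order depends on the length chosen. The listed lengths are 3656 bases against 2105 canonical for WTAP, 1462 against 1980 for METTL3, and 2644 against 5740 for METTL16. Whether the authors had already divided by a length is not given. This order therefore holds only if the scores follow read numbers and the canonical lengths apply.

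Of the members, RBM15B and CBLL1 were higher with both hairpins, and their promoters are shown to see what letters they share. The 250 bases before the annotated start are from the RefSeq promoter table for GRCh38.p14, with motif matches in capitals, searched on both strands. The motifs were the GC box known from Sp family factors (GGGCGG), the box of upstream promoter elements that is named CCAAT after its letters, the core of sites bound by ETS family factors (CCGGAAG), and the palindromic E-box that basic helix-loop-helix factors such as MYC and USF bind (CACGTG).
RBM15B: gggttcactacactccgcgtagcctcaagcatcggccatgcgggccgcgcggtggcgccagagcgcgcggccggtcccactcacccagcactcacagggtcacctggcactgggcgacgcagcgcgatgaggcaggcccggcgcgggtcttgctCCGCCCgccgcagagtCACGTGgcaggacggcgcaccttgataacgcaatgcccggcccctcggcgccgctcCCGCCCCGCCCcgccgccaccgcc
CBLL1: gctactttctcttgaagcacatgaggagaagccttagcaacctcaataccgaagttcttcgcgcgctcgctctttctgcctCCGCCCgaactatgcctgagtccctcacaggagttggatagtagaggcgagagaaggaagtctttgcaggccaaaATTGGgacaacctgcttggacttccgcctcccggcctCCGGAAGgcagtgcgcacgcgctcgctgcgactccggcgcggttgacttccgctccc
The RBM15B stretch is chr3:51391035-51391284 (plus strand) and that of CBLL1 is chr7:107743892-107744141 (plus strand). They share the GC box, with 3 matches in RBM15B (2 of them overlapping) and 1 in CBLL1, a motif that 42.64% of the 35116 promoters in the table hold. RBM15B also holds an E-box (6.345% of all promoters), and CBLL1 holds a CCAAT box (32.01%) and an ETS site (8.517%). These motifs also occur before members that did not rise with both hairpins. The GC box is found in WTAP, RBM15 and METTL5, and the E-box in RBM15. The ETS site is found in METTL3, METTL14 and ZC3H13, and the CCAAT box in METTL14, WTAP, RBM15, ZC3H13 and METTL16. No window of KIAA1429 was searched. A YY1 motif (AAGATGGCG), held by 0.6521% of promoters, had no match in either window. A match is a stretch of letters, and no binding was measured here.

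The tested genes whose profile over the 6 libraries lay nearest to that of METTL3, among 12180 with no score under 10, were MYOCD, CNNM1, TUFT1, KIAA0355 and SYNC. Likeness was the root mean square distance of centred log2 scores, which was 0.07 for MYOCD and 0.11 for SYNC. MYOCD, a transcriptional coactivator of smooth muscle genes, had scores of 160 and 160 in shMETTL3-2, 335 and 316 in shMETTL3-1, and 636 and 630 in shLuc. TUFT1, named for the enamel protein tuftelin, had scores of 500 and 570 in shMETTL3-2, 1094 and 1061 in shMETTL3-1, and 2038 and 2112 in shLuc. A graded fall of this size was therefore not particular to the gene the hairpins were directed against. The profiles nearest to RBM15B were those of YWHAB, ALG12 and WDR13, at distances from 0.04 to 0.05. YWHAB, a 14-3-3 protein, had scores of 10210 and 10752 in shMETTL3-2, 7910 and 7693 in shMETTL3-1, and 5120 and 5334 in shLuc. The profiles nearest to KIAA1429 were those of NEK9, IQCG and ARIH2, at distances from 0.03 to 0.04. NEK9, a mitotic kinase, had scores of 952 and 1022 in shMETTL3-2, 1930 and 1744 in shMETTL3-1, and 1059 and 1128 in shLuc.

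The nearest listed genes within 50 kb of each member were read beside the change of that member. VPRBP, also called DCAF1, overlaps RBM15B on the opposite strand, and the strand setting of the counting is not given, so reads of the pair might be shared. VPRBP fell by 0.33 with shMETTL3-2 (adjusted p = 0.00211) and by 0.60 with shMETTL3-1 (adjusted p = 0.000128), the opposite direction to RBM15B. MANF, 1.90 kb from RBM15B on its other side, had a difference of -0.10 with shMETTL3-2 (adjusted p = 0.472) and fell by 0.79 with shMETTL3-1 (adjusted p = 0.00102). The rise of RBM15B was thus not seen in either neighbour. AC002467.7, which overlaps CBLL1 on the opposite strand, rose by 0.79 with shMETTL3-2 (adjusted p = 0.00498) and differed by 0.42 with shMETTL3-1 (adjusted p = 0.0632). Shared reads between this pair were not tested. RAD54B, 12.6 kb from KIAA1429, differed by -0.12 with shMETTL3-2 (adjusted p = 0.278) and by 0.22 with shMETTL3-1 (adjusted p = 0.0579). For shMETTL3-2 minus shMETTL3-1 it differed by -0.34 (adjusted p = 0.0106), the same direction as KIAA1429 and a smaller size. A link between the changes of RAD54B and KIAA1429 was not tested.

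Next to METTL3, TOX4 differed by 0.20 with shMETTL3-2 (adjusted p = 0.0366) and by 0.19 with shMETTL3-1 (adjusted p = 0.0501), values that crossed the threshold in either direction when single libraries were left out. TOX4 also overlaps METTL3 on the opposite strand in the annotation used here. Its scores did not fall where those of METTL3 did: they were 1760 and 1928 in shMETTL3-2, 1814 and 1828 in shMETTL3-1, and 1526 and 1677 in shLuc. SALL2, on the other side, fell by 0.55 with shMETTL3-2 (adjusted p = 0.00176) and rose by 0.52 with shMETTL3-1 (adjusted p = 0.00247). Beside WTAP, whose own score hardly moved, SOD2, the mitochondrial superoxide dismutase, rose by 1.36 with shMETTL3-2 (adjusted p = 3.99e-06). With shMETTL3-1 SOD2 differed by -0.20 (adjusted p = 0.0223), a call lost without shLuc replicate 1 (-0.17), shMETTL3-1 replicate 1 (-0.21) or shMETTL3-1 replicate 2 (-0.20). SOD2 overlaps WTAP on the opposite strand in the annotation. ACAT2, a cytosolic thiolase next to WTAP, rose by 0.77 with shMETTL3-2 (adjusted p = 7.97e-05). SSB, which overlaps METTL5 on the opposite strand in the annotation, fell by 0.51 with shMETTL3-2 (adjusted p = 0.00265) and fell by 1.37 with shMETTL3-1 (adjusted p = 2.28e-05). METTL5 rose in the group in which SSB fell most. SLC16A4 beside RBM15 rose by 2.05 with shMETTL3-1 (adjusted p = 1.71e-05), where RBM15 itself differed by -0.13.

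Known partners and modifiers of the complex made up a list of 18 genes, all tested. With shMETTL3-2, 7 rose and 4 fell, and with shMETTL3-1, 4 rose and 8 fell, against 59.6% and 58.7% of all genes called in either direction. The count with shMETTL3-2 was 7 in all without shLuc replicate 1. STUB1, a ubiquitin ligase, rose by 0.32 with shMETTL3-2 (adjusted p = 0.00157) and fell by 0.96 with shMETTL3-1 (adjusted p = 9.81e-06). EIF3H, a translation initiation subunit that METTL3 contacts, rose by 0.60 with shMETTL3-2 (adjusted p = 0.000219), and its difference with shMETTL3-1 was 0.24 (adjusted p = 0.0162), a call lost without shLuc replicate 1 (0.17), shMETTL3-1 replicate 1 (0.27) or shMETTL3-1 replicate 2 (0.22). SPEN, a large SPOC-domain relative of RBM15, differed by 0.17 with shMETTL3-2 (adjusted p = 0.038), a call lost in 5 of 6 fits without a library, and by -0.08 with shMETTL3-1 (adjusted p = 0.248).

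The methionine and SAM cycle list covers genes that make, use or recycle the methyl donor, with genes of linked pathways. Its counts are therefore no measure of donor supply. Of the 26 listed symbols, 22 have a row and all 22 were tested. With shMETTL3-2, 2 rose and 11 fell, and with shMETTL3-1, 3 rose and 11 fell, where 28.8% and 28.4% of all tested genes fell. With both hairpins 8 of the 22 fell and 1 rose, where 13.4% and 15.7% of all tested genes did. The median difference was -0.13 and -0.21, against 0.01 over all tested genes in each comparison. The comparisons share the shLuc libraries, so their counts are not independent. NNMT, which uses SAM to methylate nicotinamide, rose by 1.16 with shMETTL3-2 (adjusted p = 1.74e-05) and by 0.64 with shMETTL3-1 (adjusted p = 0.000293). AHCYL2, a relative of AHCY, had scores of 28 and 37 in shMETTL3-2, 272 and 288 in shMETTL3-1, and 229 and 201 in shLuc. It fell by 2.70 with shMETTL3-2 (adjusted p = 1.36e-05), while the difference with shMETTL3-1 was 0.38 (adjusted p = 0.0819). APIP, an enzyme of methionine salvage, differed by -0.28 with shMETTL3-2 (adjusted p = 0.1) and fell by 1.49 with shMETTL3-1 (adjusted p = 6.83e-05). SLC25A26, which carries SAM into mitochondria, differed by 0.27 with shMETTL3-2 (adjusted p = 0.204) and by 0.63 with shMETTL3-1 (adjusted p = 0.0139), a call lost without shLuc replicate 1 (0.53), shMETTL3-1 replicate 1 (0.58) or shMETTL3-1 replicate 2 (0.68).

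**Figure D4:**
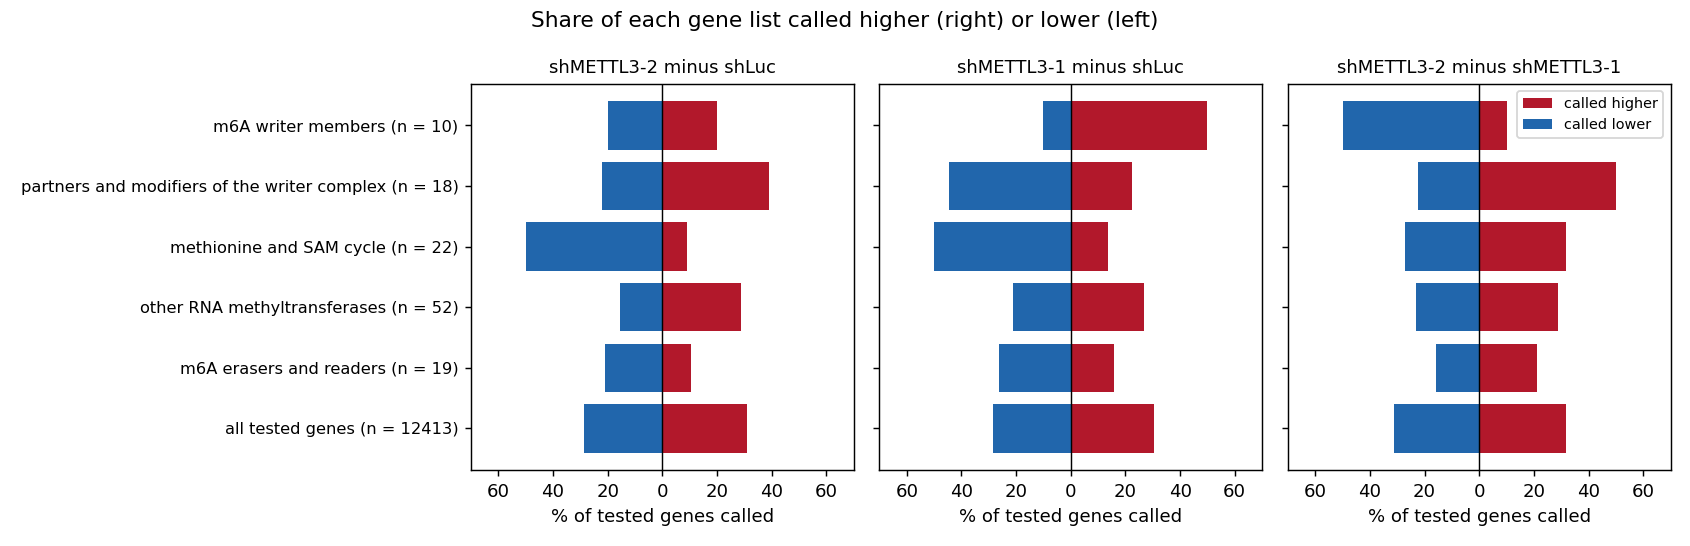
Percentage of tested genes called higher and lower in each list and among all tested genes. The panels are shMETTL3-2 minus shLuc, shMETTL3-1 minus shLuc and shMETTL3-2 minus shMETTL3-1. The SAM cycle list shows 11 of 22 genes lower in each comparison with shLuc, against 28.8% and 28.4% of all tested genes. Against shLuc the 10 writer genes show 2 higher and 2 lower with shMETTL3-2 and 5 higher and 1 lower with shMETTL3-1.

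The other RNA methyltransferases, 52 of them tested, had 15 higher and 8 lower with shMETTL3-2 and 14 higher and 11 lower with shMETTL3-1, shares below those of all genes. PCIF1, which methylates the first adenosine after the cap, had scores of 692 and 648 in shMETTL3-2, 1316 and 1400 in shMETTL3-1, and 974 and 1006 in shLuc. PCIF1 fell by 0.56 with shMETTL3-2 (adjusted p = 0.000272) and rose by 0.46 with shMETTL3-1 (adjusted p = 0.000797), so the hairpins lie on opposite sides of the control. METTL4, which methylates adenosine in the U2 small nuclear RNA, rose by 0.70 with shMETTL3-2 (adjusted p = 0.000155), and its difference with shMETTL3-1 was -0.02 (adjusted p = 0.866). ZCCHC4, the m6A methyltransferase of the 28S ribosomal RNA, rose by 0.40 with shMETTL3-2 (adjusted p = 0.0133), a call lost without shMETTL3-2 replicate 2 (0.38, adjusted p = 0.0601), and differed by -0.21 with shMETTL3-1 (adjusted p = 0.133). CMTR1, a cap ribose methyltransferase, fell by 0.61 with shMETTL3-2 (adjusted p = 0.000202) and by 0.66 with shMETTL3-1 (adjusted p = 0.000147). TRMT6, a subunit of a tRNA m1A methyltransferase, differed by -0.12 with shMETTL3-2 (adjusted p = 0.323) and fell by 1.12 with shMETTL3-1 (adjusted p = 8.22e-05). TRMT1L, related to a tRNA guanosine methyltransferase, rose by 0.62 with shMETTL3-2 (adjusted p = 0.000669) and by 1.14 with shMETTL3-1 (adjusted p = 3.64e-05). TFB1M, which dimethylates mitochondrial 12S ribosomal RNA, rose by 1.13 with shMETTL3-2 (adjusted p = 0.00291), and its difference with shMETTL3-1 was 0.68 (adjusted p = 0.0271), a call lost without shLuc replicate 1 (0.64), shLuc replicate 2 (0.72) or shMETTL3-1 replicate 1 (0.39). Among 19 tested erasers and readers of m6A, 2 rose and 4 fell with shMETTL3-2 and 3 rose and 5 fell with shMETTL3-1. Over all tested genes 30.8% rose and 28.8% fell with shMETTL3-2, and 30.3% rose and 28.4% fell with shMETTL3-1.

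Markers were read to check the labelled cell type. Of 12 stellate and mesenchymal markers 9 have a row, and DES, LRAT and GFAP have none. The summed score of the 9 ran from 110951 to 112511 in shMETTL3-2, from 149818 to 149991 in shMETTL3-1, and from 138509 to 147025 in shLuc. Most of it came from COL1A1, VIM and SPARC. COL1A1 stood at the common maximum of 72566 in shMETTL3-1 and shLuc and averaged 44454 in shMETTL3-2. Scores are close to ranks, so the sums mostly reflect the places of these genes near the top of each library. The smooth muscle actin gene ACTA2, which marks activated stellate cells, averaged 1544 in shMETTL3-2, 978.5 in shMETTL3-1 and 8989.5 in shLuc. The group means of the markers do not share 1 order: SPARC averaged 44404 in shMETTL3-2, 27406 in shMETTL3-1 and 12181 in shLuc, and VIM averaged 12344 in shMETTL3-2, 44404 in shMETTL3-1 and 38152 in shLuc. Sums for other cell types were low, with 218 to 237, 292 to 296 and 236 to 342 for 2 of 6 hepatocyte markers, and 53 to 55, 57 to 89 and 236 to 268 for 2 of 4 endothelial markers, in shMETTL3-2, shMETTL3-1 and shLuc in turn. For 3 of 4 macrophage markers the sums were 1446 to 1451 in shMETTL3-2, 1167 to 1514 in shMETTL3-1 and 841 to 867 in shLuc. CD68 was the highest of them and averaged 1068 in shMETTL3-2, 1077.5 in shMETTL3-1 and 376 in shLuc. PTPRC (234.5, 129.5 and 307.5 in the same order) and CD14 (146, 133.5 and 170.5) averaged less in both knockdown groups than in shLuc. PTPRC ran from 0 to 317 over the libraries, and the 0 lay in shMETTL3-1, so its mean there describes neither library. For 2 of 4 cholangiocyte markers the sums were 384 to 484 in shMETTL3-2, 812 to 980 in shMETTL3-1 and 434 to 442 in shLuc. None of these markers was at 0 in all libraries, and their part in the members' differences was not tested.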

How the data were processed

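RNA was sequenced from 6 LX2 libraries, 2 per group. Per the labels' protocols, the reads were aligned to hg19. The submitters' processing notes name DESeq2 but not its role or version. The aligner, counting tool, strand setting and depth are not stated in any source used. The deposited values are whole numbers treated as scores, since column totals differ only between 16535130 and 16536605 and 87.3% of ranks hold the same value in all 6 libraries. The count test planned for a count table was therefore not used.

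In R 4.3.3, limma 3.58.1 modelled log2(score + 1) for the 12413 genes whose mean score reached 50, as group means with trend and robust moderation. P-values are two-sided, with Benjamini-Hochberg adjustment over all tested genes, and intervals are at 95% without adjustment. The procedure was tested on simulated data. Alternatives changed the pseudocount, filter, moderation, libraries fitted, scaling, scale and pairing, and left out each library in turn.

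Besides the 10 members the text names TRMT112, MAT2A, MAT2B, AHCY, SPEN, PCIF1, ZCCHC4 and METTL4, the 2 largest called rises and falls per list in the mean of both hairpins, nearest listed neighbours, and nearest profiles, with no score under 10 for the lists and profiles. Values for the nearest neighbours and profiles are given for those that bear on a member's change. Of the genes this rule names, 2 are not reported here. Members and lists were chosen with earlier results of these data known. GENCODE v44 lifted to GRCh37 gave transcripts; all 10 members matched, RBM15B by symbol.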

Additional observations from a re-analysis of the deposited data

Results flagged for a closer look

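For 6 of the 10 genes the effect of the hairpins differed by the test of the difference itself, given here as shMETTL3-2 minus shMETTL3-1 on the log2 scale. METTL3 differed by -0.92, with the deeper fall in shMETTL3-2. KIAA1429 differed by -0.84, having risen with shMETTL3-1 and not been called with shMETTL3-2. METTL5 differed by -0.87, at the lowest scores of the 10. RBM15B differed by 0.43, having risen with both hairpins. ZC3H13 differed by -0.41, having fallen with shMETTL3-2. CBLL1 differed by -0.28, a call that 3 of the 6 fits without a library lost. Of all tested genes, 63.0% were called between the hairpins, and the cause of these differences was not tested.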

How the results depend on the processing

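Over 596 alternative values for the members' differences, 559 kept their direction and side of the threshold, 26 lost a call, 8 gained one and 3 changed sign without a call. Changing the filter, moderation or pairing, fitting only the compared groups, or leaving out a library outside the comparison cannot move the estimate itself. Such alternatives could change a call but not a sign, here and for the other named genes below. All calls for METTL3 held in every alternative. The sign changes were for ZC3H13 with shMETTL3-1 (-0.13 to 0.019 without single libraries), METTL14 with shMETTL3-2 (-0.12 to 0.29) and RBM15 with shMETTL3-2 (-0.16 to 0.021). Among other named genes, 11 of 1483 values changed sign: MAT2A with shMETTL3-1 (-0.095 to 0.12, and -0.0040 with median-of-ratios scaling) and shMETTL3-2 (-0.071 to 0.041), METTL4 (-0.069 to 0.034), ACAT2 (-0.17 to 0.023) with shMETTL3-1, and SEC24D, beside METTL14 (-0.21 to 0.14), SLC16A4 (-0.00054 to 0.14) and MANF (-0.22 to 0.014) with shMETTL3-2. With both hairpins as 1 group of 4, 1494 genes were called, 841 of them higher, with METTL3 the 1 member called (adjusted p = 0.0496), and the lists of partners, SAM cycle, other RNA methyltransferases, and erasers and readers had 1, 2, 4 and 2 calls; that grouping puts the difference between the hairpins into the spread. Without single libraries the partners list had 7 to 11 calls with shMETTL3-2 and 5 to 10 for the mean of both hairpins, and other RNA methyltransferases had 17 to 27 between the hairpins.

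Libraries with the same replicate number did not deviate together (correlations 0.015, 0.037 and 0.047 over genes), so the numbers were not taken as pairs. With the replicate block, 7769 genes were called with shMETTL3-2 and 7698 with shMETTL3-1, against 7400 and 7281 without it. The block gave 4 and 6 members, and no call of a member changed. Calls gained with the block among other named genes included MAT2B with shMETTL3-2 (0.20, adjusted p = 0.0365) and TOX4 with shMETTL3-1 (0.19, adjusted p = 0.0198). Depth is unknown, and low scores such as those of METTL5 carry the widest errors.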
